A study of Homo sapiens with 12 samples.

Results

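The family of miR-130, miR-301 and miR-454 is a set of related microRNAs (miRNAs), short RNAs that guide Argonaute proteins to messenger RNAs. Members were the table entries named hsa-miR-130a-3p, hsa-miR-130b-3p, hsa-miR-130b-5p, hsa-miR-301a-3p and hsa-miR-454-3p, which are 5 of 2588 mature miRNA entries. The choice was made by name and not by level, although earlier results of these data were known. HEK293T cells, of a human embryonic kidney line expressing the large T antigen of SV40, had received an siRNA against Tudor-SN or, as the comparison, a control siRNA. Both groups were transiently transfected cultures of this 1 line, grown in medium with 10% serum. The series asked which mature miRNAs depend on Tudor-SN, an endonuclease encoded by SND1. For each siRNA 3 libraries were sequenced in run 1 and 3 in run 2. The labels do not say whether the 2 runs used the same cultures. The libraries of run 1 were made from an RNA fraction enriched in molecules under 200 nt, and run 2 from total RNA. Size selection and the sequencer also differed between the runs, so these differences cannot be told apart. Messenger RNA was not measured, so the loss of Tudor-SN could not be checked in these libraries.

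A miRNA is cut from a hairpin precursor by Drosha and Dicer, and each arm of the hairpin (5p or 3p) can give a mature strand. The seed, the bases near the 5′ end, sets most of the target choice, so miRNAs with the same seed can repress many of the same messages. The 3p strands of this family share a seed and are the usual guide strands, whereas miR-130b-5p comes from the opposite arm and has another seed. In other systems miR-130a-3p is known from endothelial cells, where it acts on the homeobox genes HOXA5 and MEOX2, and miR-130b-3p is known for repressing TP53INP1.

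The mature sequences show which strands carry the family seed, with bases 2 to 8 in capitals. They were taken from RefSeq (GRCh38.p14) by miRNA name, which matched 4 of the 5 members. The unmatched member was miR-130a-3p. Also shown is miR-301b-3p, an entry outside the member list with the same seed.
miR-130b-3p: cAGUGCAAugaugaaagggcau
miR-301a-3p: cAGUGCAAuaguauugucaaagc
miR-454-3p: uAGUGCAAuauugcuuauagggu
miR-301b-3p: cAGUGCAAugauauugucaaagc
miR-130b-5p: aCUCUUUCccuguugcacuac
The first of these lies at chr22:21653354-21653375 (plus strand), miR-301a-3p at chr17:59151149-59151171 (minus), miR-454-3p at chr17:59137787-59137809 (minus), miR-301b-3p at chr22:21653025-21653047 (plus) and miR-130b-5p at chr22:21653316-21653336 (plus). The members with the family seed diverge after it. Aligned from their 5′ ends without gaps, miR-130b-3p had the same base as miR-301a-3p at 11 of 22 positions and the same base as miR-454-3p at 10 of 22. The closest pair was miR-301a-3p and miR-301b-3p, which differed at 2 of 23 positions. Counting from 1 at the 5′ end, with the base of miR-301a-3p first, the differences were A10G and G11A. Reads of these near-identical strands could be split between them by the authors' mapping, so their separate values are less certain.

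The hairpin of miR-130b is shown because both of its arms were members. The arms are in capitals, with the 5p arm first, at chr22:21653304-21653385 on the plus strand.
MIR130B: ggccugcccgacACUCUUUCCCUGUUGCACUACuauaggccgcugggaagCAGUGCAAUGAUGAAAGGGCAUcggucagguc
In the GENCODE release 29 annotation of GRCh38, MIR130B overlapped an exon of the noncoding transcript AP000553.1. The hairpin MIR301B lay 245 bases upstream of it, in an intron of the same gene. MIR301A and MIR454 lay in introns of SKA2, a gene for a spindle and kinetochore protein, on the minus strand of chromosome 17. There were 13263 bases between those 2 hairpins. MIR130A lay on chromosome 11 in an intron of AP000662.1.

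Depth differed with the siRNA. Total miRNA counts were 658568 to 1092713 per library with the Tudor-SN siRNA and 222452 to 270191 with the control siRNA in run 1. In run 2 they were 1710708 to 3140214 with the Tudor-SN siRNA and 927727 to 1653077 with the control siRNA. A count of 0 allowed up to 3 counts. As CPM, a count relative to all miRNA counts of its library, that floor was 2.75 to 4.56 with the Tudor-SN siRNA and 11.1 to 13.5 with the control siRNA in run 1. It was 0.955 to 1.75 with the Tudor-SN siRNA and 1.81 to 3.23 with the control siRNA in run 2. Such floors account for counting error alone. Of 7 liver, blood and muscle miRNAs checked, miR-142-3p, miR-223-3p and miR-206 had 0 counts in all 12 libraries, and miR-122-5p and miR-451a had 1 count each over the series. Muscle miR-1-3p stood out in run 1, with 105, 71 and 51 counts in Tudor-SN siRNA libraries against 5, 2 and 1 in control libraries. Muscle miR-133a-3p had 23, 11 and 16 counts in Tudor-SN siRNA libraries of run 2 against 0, 0 and 1 in control libraries. The 7 markers together summed to 76.0 to 93.8 CPM with the Tudor-SN siRNA and 4.69 to 20.2 CPM with the control siRNA in run 1. In run 2 the sums were 4.72 to 10.6 CPM with the Tudor-SN siRNA and 0 to 1.14 CPM with the control siRNA. Their part in the results below was not tested.

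The member with the highest mean in each group was miR-130b-3p, although in control cells of run 1 its libraries overlapped those of the next. In run 2 its mean ranked 43rd among the 1097 entries with a count in Tudor-SN siRNA cells and 57th among 939 in control cells. Levels below are CPM scaled by the trimmed mean of M values (TMM) within a run. In run 2 the members followed the order miR-130b-3p, miR-301a-3p, miR-454-3p, miR-130b-5p and miR-130a-3p under both siRNAs, and in each library every member was above the next. In Tudor-SN siRNA cells of run 1 miR-454-3p came second, followed by miR-130b-5p and miR-301a-3p. In control cells of run 1 the libraries of neighbours overlapped for miR-130b-3p, miR-454-3p and miR-130b-5p, so those 3 could not be ordered beyond their spread.

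The levels of the guide strand miR-130b-3p and of its partner miR-130b-5p were higher after Tudor-SN siRNA in run 2, by 1.72-fold and 1.71-fold. The guides of the other hairpins, miR-301a-3p and miR-454-3p, did not pass in the main fit of any comparison of the siRNAs. In run 2 each was called lower in an alternative fit, as given below. In run 1 no tested member passed. Tests were edgeR's quasi-likelihood test over all miRNAs that passed the count filter, with Benjamini-Hochberg adjusted p-values and a threshold of 0.05.

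In run 2 the level of miR-130b-3p was 1241, 1252 and 1182 CPM in Tudor-SN siRNA libraries against 676, 750 and 711 CPM in control libraries. The means were 1225 ± 37.4 and 712 ± 36.8 CPM (SD, n = 3 each). All Tudor-SN siRNA libraries lay above all control libraries, and the gap between the groups exceeded the spread within either. The log2 fold change was 0.78 (SE 0.06, 95% interval 0.65 to 0.91, edgeR adjusted p = 6.99e-08).

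For miR-130b-5p, the other arm of that hairpin, run 2 gave 34.1, 32.1 and 30.5 CPM in Tudor-SN siRNA libraries against 17.2, 20.5 and 18.04 CPM in control libraries. The means were 32.2 ± 1.79 and 18.6 ± 1.74 CPM (SD, n = 3 each). Again the groups did not overlap and all Tudor-SN siRNA libraries were higher. The log2 fold change was 0.78 (SE 0.20, 95% interval 0.36 to 1.20, edgeR adjusted p = 0.00389). Behind these levels stood 52 to 115 counts per Tudor-SN siRNA library and 15 to 34 per control library, so this arm was measured less precisely than its partner. With all run 2 libraries thinned to the depth of the smallest, the log2 fold change was 0.61 and the call was lost (edgeR adjusted p = 0.0556).

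The guide miR-301a-3p had 495, 397 and 537 CPM in Tudor-SN siRNA libraries of run 2 against 541, 479 and 567 CPM in control libraries. The means were 476 ± 71.8 and 529 ± 45.4 CPM (SD, n = 3 each). The groups overlapped, and the log2 fold change was -0.15 (SE 0.10, 95% interval -0.36 to 0.06, edgeR adjusted p = 0.226). It was -0.02 without Tudor-SN siRNA replicate 2 and -0.23 without Tudor-SN siRNA replicate 3. For miR-454-3p, the guide of the other SKA2 intronic hairpin, the levels were 287, 287 and 348 CPM in Tudor-SN siRNA libraries against 414, 311 and 328 CPM in control libraries. The groups overlapped here too, and the log2 fold change was -0.19 (SE 0.11, 95% interval -0.42 to 0.04, edgeR adjusted p = 0.162). Leaving out Tudor-SN siRNA replicate 3 moved the log2 fold change of miR-454-3p to -0.27 and gave a call (edgeR adjusted p = 0.0379). The intervals of both guides reached no higher than 0.06 on the log2 scale and did not include the change of miR-130b-3p.

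The member miR-130a-3p was at or near 0 throughout. It had 0 counts in all 6 libraries of run 1. In run 2 it had 2, 0 and 3 counts in Tudor-SN siRNA libraries and 0, 1 and 0 in control libraries. No library exceeded the floor of 3 counts, and no fold change is given.

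Thus 2 of the 4 tested members rose and 0 fell in run 2. Among all 383 miRNAs tested in that run 50.9% passed the threshold, 24% higher and 26.9% lower. By library size alone, without TMM, 103 were higher and 78 lower, against 92 and 103 with TMM. The median log2 fold change was 0.31 over the tested members and -0.02 over all tested. From the highest log2 fold change of run 2 downward, miR-130b-3p ranked 31st and miR-130b-5p 32nd of 383. Groups without overlap and higher after Tudor-SN siRNA were found for 27.9% of all tested miRNAs.

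**Figure D1:**
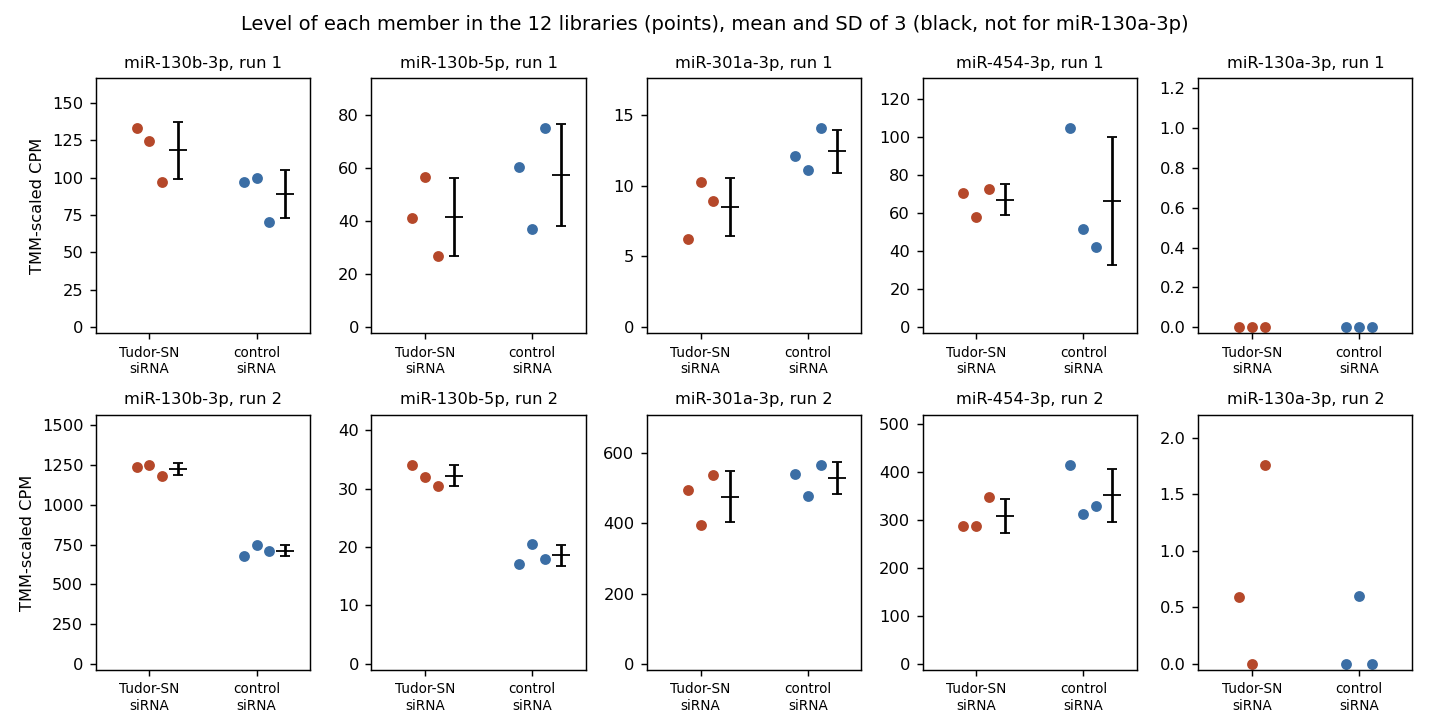
TMM-scaled CPM (linear axes from 0, different in each panel) of the 5 members in run 1 (top) and run 2 (bottom). Coloured points are libraries and black marks the mean and SD of 3. In run 2 the Tudor-SN siRNA points of miR-130b-3p, 1182 to 1252 CPM, all lie above the control points, 676 to 750 CPM, while those of miR-301a-3p and miR-454-3p overlap.

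In run 1 the same guide, miR-130b-3p, had 133, 124 and 96.8 CPM in Tudor-SN siRNA libraries against 96.8, 99.7 and 70.3 CPM in control libraries. The means were 118 ± 18.9 and 88.9 ± 16.2 CPM (SD, n = 3 each), from 65 to 149 counts per Tudor-SN siRNA library and 15 to 27 per control library. The groups overlapped. The log2 fold change was 0.41 (SE 0.24, 95% interval -0.06 to 0.87, edgeR adjusted p = 0.159), and it was 0.24 without Tudor-SN siRNA replicate 1. That interval still contains the run 2 estimate of 0.78.

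In run 1 miR-130b-5p had 41.1, 56.5 and 26.8 CPM in Tudor-SN siRNA libraries against 60.5, 36.9 and 75.0 CPM in control libraries. The groups overlapped and the spread within each was wide. The log2 fold change was -0.43 (SE 0.33, 95% interval -1.09 to 0.23, edgeR adjusted p = 0.327). It was -0.73 without Tudor-SN siRNA replicate 2 and -0.19 without control replicate 3. The same strand thus had a negative estimate in run 1 and a positive one in run 2.

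For miR-454-3p the levels in run 1 were 70.5, 57.8 and 73.0 CPM in Tudor-SN siRNA libraries against 105, 51.7 and 42.2 CPM in control libraries. The control libraries spanned the Tudor-SN siRNA libraries on both sides. The log2 fold change was 0.01 (SE 0.28, 95% interval -0.55 to 0.57, edgeR adjusted p = 0.984). With upper quartile scaling it was -0.18.

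The guide miR-301a-3p had 7, 8 and 6 counts in Tudor-SN siRNA libraries of run 1 and 3 in each control library, which is the floor. As levels these are 6.25 to 10.3 CPM with the Tudor-SN siRNA and 11.1 to 14.1 CPM with the control siRNA. It did not pass the count filter in run 1, so no siRNA test of it was made there. Of the 3 tested members, 0 passed the edgeR test in run 1, 0 had an unadjusted p under 0.05 and 0 passed with DESeq2. Among all 224 miRNAs tested in run 1, 44.2% passed, 21.4% higher and 22.8% lower. With upper quartile scaling the split was 33 higher and 69 lower, against 48 and 51 with TMM.

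Over both runs, with the run as a term in the fit, miR-130b-3p was higher after Tudor-SN siRNA, by 0.72 on the log2 scale (SE 0.10, 95% interval 0.52 to 0.92, edgeR adjusted p = 2.68e-06). It was the 1 member of 4 tested that passed, against 48.7% of all 378 miRNAs tested, 23% of all being higher. The fit gave miR-130b-5p 0.36 (SE 0.22, edgeR adjusted p = 0.182), miR-301a-3p -0.17 (SE 0.12, edgeR adjusted p = 0.236) and miR-454-3p -0.12 (SE 0.13, edgeR adjusted p = 0.458). The estimate of miR-454-3p was 0.05 with DESeq2. All 12 libraries were treated as independent in this fit over both runs, which the labels do not settle.

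The difference of the siRNA effect, run 1 minus run 2, was tested by an interaction term. It was -0.26 for miR-130b-3p (SE 0.22, edgeR adjusted p = 0.531) and 0.31 for miR-454-3p (SE 0.30, edgeR adjusted p = 0.596). For miR-301a-3p it was -0.32 (SE 0.57, edgeR adjusted p = 0.785), from few counts in run 1. For miR-130b-5p it was -1.09 (SE 0.39, 95% interval -1.89 to -0.30, edgeR adjusted p = 0.0640). None of the 4 tested members passed with edgeR, 1 of them (miR-130b-5p) had an unadjusted p under 0.05, and the same strand passed with DESeq2 at -1.01 (adjusted p = 0.0486). It also passed without control replicate 2 of run 1 (-1.35, edgeR adjusted p = 0.0295) and without Tudor-SN siRNA replicate 2 of run 1 (-1.29, edgeR adjusted p = 0.0311). Of all 378 miRNAs tested for a difference, 11.6% passed.

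**Figure D2:**
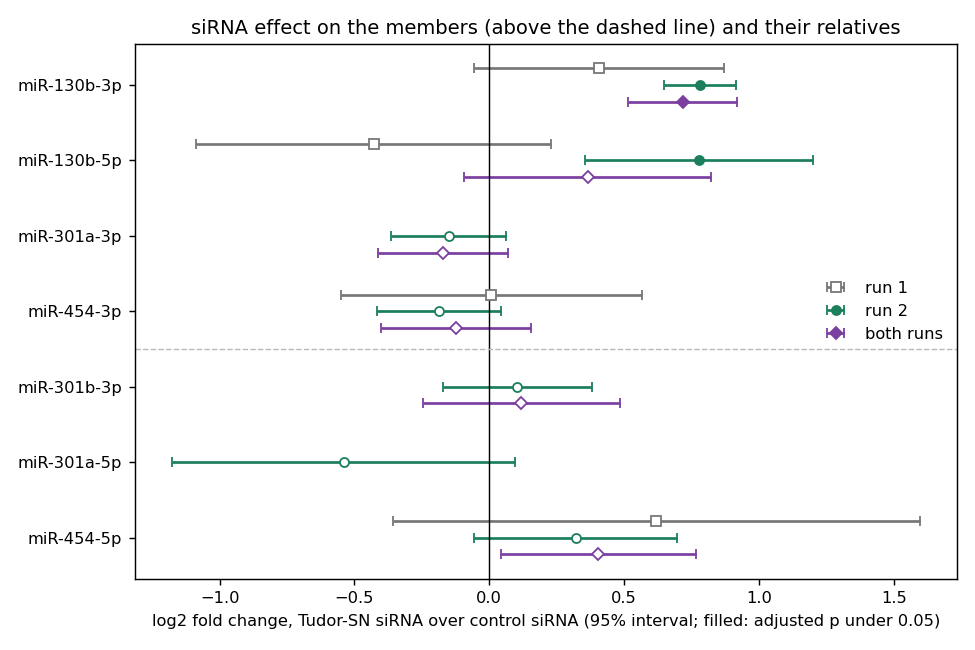
Log2 fold change, Tudor-SN siRNA over control siRNA, with 95% intervals from edgeR, for the tested members (above the dashed line) and the other family strands (below it). Squares are run 1, circles run 2 and diamonds both runs, filled where the adjusted p is under 0.05. The filled symbols are miR-130b-3p in run 2 and over both runs, at 0.78 and 0.72, and miR-130b-5p in run 2, at 0.78.

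The authors' deposited table gave log2 fold changes of the same sign for each member in each run in which it was tested here. In the authors' deposited table miR-130b-3p had 0.52 in run 1 (adjusted p = 0.180) and 0.86 in run 2 (adjusted p = 1.79e-28). For miR-130b-5p the authors' deposited table held -0.30 in run 1 (adjusted p = 0.652) and 0.83 in run 2 (adjusted p = 0.0125). For miR-301a-3p and miR-454-3p no adjusted p of the authors' deposited table was under 0.05 in either run.

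The other strands of the family were described from a list of 7 entries, of which 3 were tested in run 2 and 1 in run 1. By edgeR 0 of them passed in run 2 and 0 had an unadjusted p under 0.05, against 50.9% called among all tested. For miR-301b-3p, the guide of the hairpin beside MIR130B, run 2 gave 174, 144 and 208 CPM in Tudor-SN siRNA libraries against 153, 151 and 183 CPM in control libraries. The groups overlapped, with a log2 fold change of 0.10 (SE 0.13, 95% interval -0.17 to 0.38, edgeR adjusted p = 0.532). Its interval lay below that of miR-130b-3p, although the 2 hairpins are annotated in 1 gene.

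The opposite arm of MIR454, miR-454-5p, had 45.8 ± 8.23 CPM in Tudor-SN siRNA cells and 35.8 ± 2.43 CPM in control cells of run 2 (SD, n = 3 each). Its log2 fold change was 0.32 in run 2 (SE 0.18, edgeR adjusted p = 0.146) and 0.62 in run 1 (SE 0.50, edgeR adjusted p = 0.342). Over both runs it was 0.40 (SE 0.17, 95% interval 0.04 to 0.76, edgeR adjusted p = 0.0596), just outside the threshold. The opposite arm of MIR301A, miR-301a-5p, had 7.49 ± 1.29 CPM in Tudor-SN siRNA cells and 10.5 ± 0.295 CPM in control cells of run 2 (SD, n = 3 each), with a log2 fold change of -0.54 (SE 0.30, edgeR adjusted p = 0.146). For miR-130a-5p, miR-3666 and miR-4295 there were 0 counts in all libraries, and miR-301b-5p had 0 to 9 counts per library.

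The make-up of the shared-seed pool was described by summing the counts of miR-130a-3p, miR-130b-3p, miR-301a-3p, miR-301b-3p and miR-454-3p in each library. In run 2 miR-130b-3p made up 56.2 ± 4.13% of that pool in Tudor-SN siRNA cells and 40.7 ± 3.31% in control cells (SD, n = 3 each). The share of miR-301a-3p was 21.7 ± 2.35% in Tudor-SN siRNA cells and 30.1 ± 1.70% in control cells. For miR-454-3p it was 14.1 ± 1.14% in Tudor-SN siRNA cells and 19.98 ± 2.80% in control cells. Shares within a pool depend on each other, so the lower shares of these 2 guides accompany the higher one of miR-130b-3p. For miR-301b-3p the share was 8.00 ± 1.09% in Tudor-SN siRNA cells and 9.25 ± 0.875% in control cells.

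The whole pool summed to 2185 ± 98.7 CPM in Tudor-SN siRNA cells and 1755 ± 55.2 CPM in control cells of run 2. In run 1 it summed to 195 ± 17.4 CPM in Tudor-SN siRNA cells and 168 ± 43.8 CPM in control cells (SD, n = 3 each). In run 1 the pool consisted mainly of miR-130b-3p, at 60.4 ± 5.52% in Tudor-SN siRNA cells and 54.1 ± 8.14% in control cells, and miR-454-3p, at 34.6 ± 5.59% and 38.1 ± 9.55% under the same siRNAs. The share of miR-301a-3p in run 1 was 4.42 ± 1.30% with the Tudor-SN siRNA and 7.86 ± 2.87% with the control siRNA. In control replicate 1 of run 1, miR-454-3p was the larger part, with 26 counts against 24 of miR-130b-3p.

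**Figure D3:**
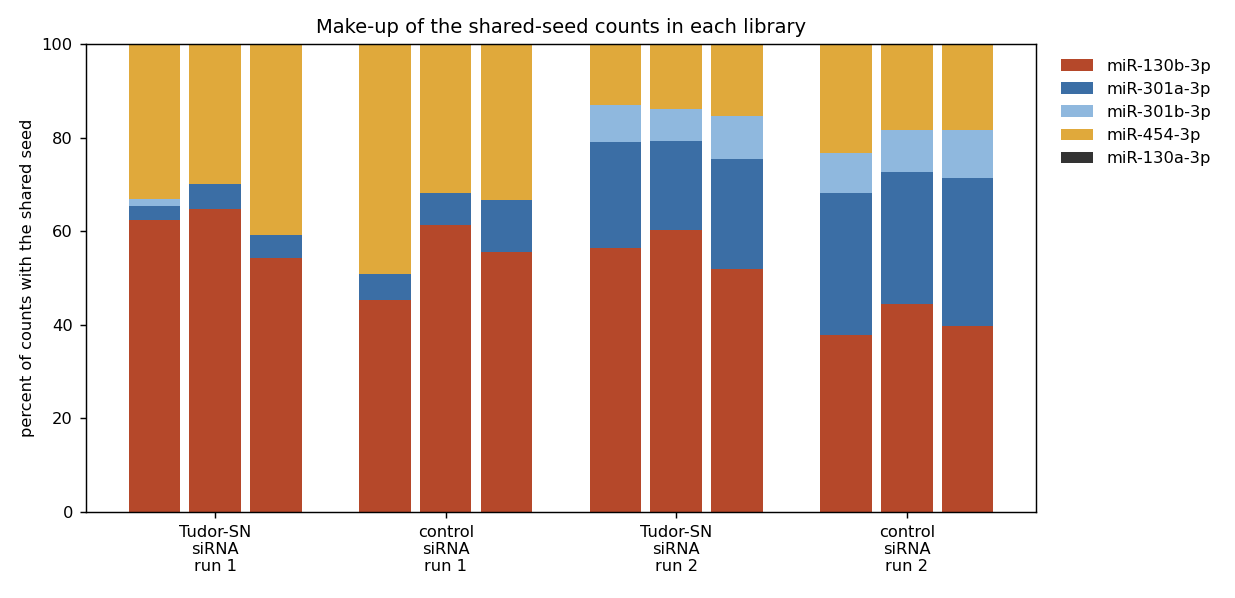
Percent of the summed counts of 5 family guide strands taken by each, in each of the 12 libraries (bars, replicates 1 to 3 from left to right within a group). In run 2 the miR-130b-3p part averages 56.2% with the Tudor-SN siRNA and 40.7% with the control siRNA, and in run 1 miR-301b-3p is at or near 0.

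Relative to each of the other guides of run 2, miR-130b-3p was higher in every Tudor-SN siRNA library. This comparison was made after the levels were seen and carries no test. Per 100 counts of miR-454-3p there were 432, 436 and 340 counts of miR-130b-3p in Tudor-SN siRNA libraries against 163, 241 and 217 in control libraries. Per 100 counts of miR-301b-3p there were 712, 867 and 569 in Tudor-SN siRNA libraries against 441, 497 and 388 in control libraries. Such ratios within a library do not depend on how libraries are scaled.

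The arms of MIR130B moved together in run 2. Per 100 counts of miR-130b-3p there were 2.75, 2.56 and 2.58 counts of miR-130b-5p in Tudor-SN siRNA libraries against 2.54, 2.74 and 2.54 in control libraries. The means were 2.63 ± 0.103 and 2.60 ± 0.116 (SD, n = 3 each), and the log2 difference was -0.01 (exact permutation test, two-sided, p = 0.6, n = 3 each). All 6 ratios of run 2 lay between 2.54 and 2.75, while both arms differed between the siRNAs. In run 1 the ratio was 30.9, 45.4 and 27.7 in Tudor-SN siRNA libraries against 62.5, 37.04 and 107 in control libraries, a log2 difference of -0.89 (exact permutation p = 0.2). With 3 libraries a group, a single run could not give a p below 0.1. Over both runs the mean log2 difference was -0.45 (exact permutation of the siRNA labels within runs, p = 0.13, adjusted over 2 ratios 0.235). The difference of this effect between the runs was -0.88 (exact permutation p = 0.175).

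The SKA2 intronic guides kept nearly the same proportion in run 2. Per 100 counts of miR-454-3p there were 173, 138 and 154 counts of miR-301a-3p in Tudor-SN siRNA libraries against 131, 154 and 173 in control libraries, with overlapping groups (log2 difference 0.03, exact permutation p = 0.8). In run 1 the ratio was 8.86, 17.8 and 12.2 in Tudor-SN siRNA libraries against 11.5, 21.4 and 33.3 in control libraries (log2 difference -0.78, exact permutation p = 0.2). The mean over runs was -0.38 (exact permutation p = 0.235, adjusted 0.235), and it was 0.27 with thinned counts. The run 1 ratios rest on 3 to 8 counts of miR-301a-3p per library.

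**Figure D4:**
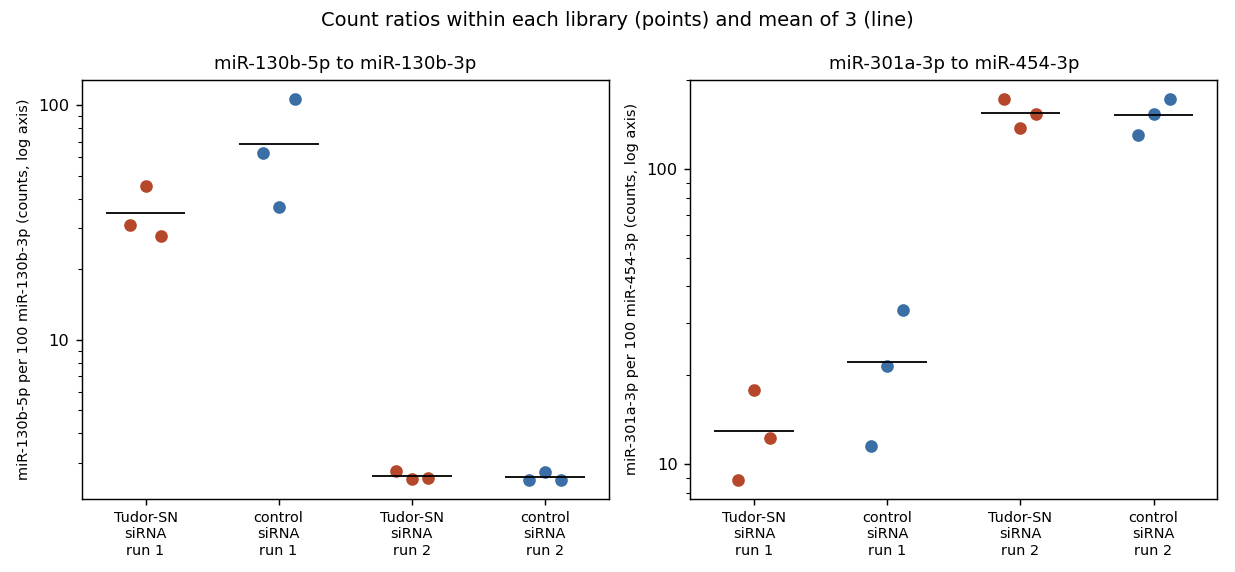
Counts of miR-130b-5p per 100 of miR-130b-3p (left) and of miR-301a-3p per 100 of miR-454-3p (right) in each library, on log axes, with the mean of 3 as a line. The siRNA groups of run 2 overlap in both panels, and the runs lie far apart: the left panel shows 27.7 to 107 in run 1 and 2.54 to 2.75 in run 2.

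The largest differences of the family were between the runs. In control cells, 3 of 4 tested members were lower in run 1 than in run 2, and miR-130b-5p was higher. Of all 302 miRNAs tested between the runs, 80.1% passed, 35.4% higher and 44.7% lower in run 1, so a call alone says little here. The median over all tested was -0.18 on the log2 scale with TMM over the 6 control libraries and -0.68 by library size alone.

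For miR-301a-3p the level in control cells was 12.1, 11.1 and 14.1 CPM in run 1 against 541, 479 and 567 CPM in run 2. These run 1 levels are 3 counts per library, at the floor. The log2 fold change, run 1 over run 2, was -4.87 (SE 0.26, edgeR adjusted p = 4.61e-16), which is 29.3-fold lower and the 13th lowest of 302. In control cells miR-130b-3p was 5.47-fold lower in run 1 (log2 fold change -2.45, SE 0.16, edgeR adjusted p = 5.47e-14). For miR-454-3p the level was 3.59-fold lower in run 1 (log2 fold change -1.85, SE 0.23, edgeR adjusted p = 3.49e-08). By library size alone, from summed control counts, miR-301a-3p was 41.4-fold, miR-130b-3p 7.82-fold and miR-454-3p 4.99-fold lower in run 1.

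Against these, miR-130b-5p was 4.26-fold higher in run 1 of control cells (log2 fold change 2.09, SE 0.32, edgeR adjusted p = 1.15e-06), although it comes from the same hairpin as miR-130b-3p. It had 15, 10 and 16 counts in the run 1 control libraries. By library size alone, from summed counts, miR-130b-5p was 3.02-fold higher in run 1 in control cells. With the Tudor-SN siRNA it was 1.24-fold higher, at 42.4 CPM in run 1 and 34.1 CPM in run 2. Of the MIR454 arms, miR-454-5p had a log2 fold change of -0.38 (SE 0.40, 95% interval -1.20 to 0.44, edgeR adjusted p = 0.391), which did not pass and whose interval lay above that of miR-454-3p, -2.32 to -1.37. Per 100 counts of miR-454-3p there were 11.5, 57.1 and 33.3 counts of miR-454-5p in control libraries of run 1 against 8.01, 11.6 and 11.6 in those of run 2, which overlapped. With the Tudor-SN siRNA there were 37.97, 51.1 and 44.9 in run 1 against 14.8, 13.9 and 15.9 in run 2, without overlap. As for MIR130B, the mean 5p to 3p ratio was thus higher in run 1 under both siRNAs. The difference between the arms was not tested. The guide miR-301b-3p had 0 counts in all control libraries of run 1 and 134 to 250 in those of run 2. Taking the floor of 3 counts over the summed run 1 control libraries, it was at least 38.4-fold lower in run 1, by library size alone.

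**Figure D5:**
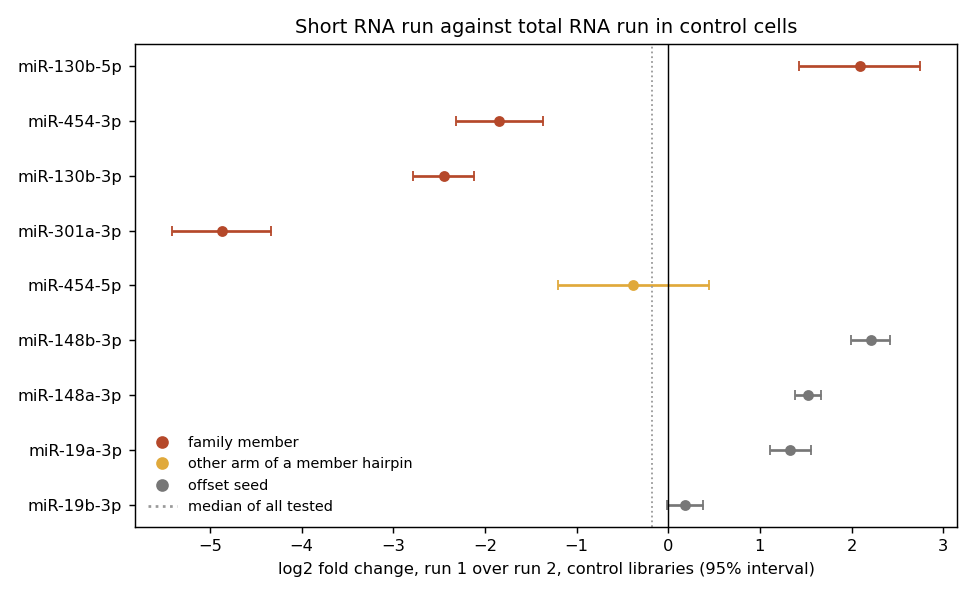
Log2 fold change, run 1 over run 2, in control siRNA libraries with 95% intervals from edgeR, for members (red), miR-454-5p (yellow) and miRNAs with an offset seed (grey). The dotted line is the median of all tested miRNAs, -0.18. The 3 guide strands lie at -4.87 to -1.85 and miR-130b-5p lies at 2.09. Not drawn are miR-152-3p, the highest of 302 tested, and miR-301b-3p, the 2nd lowest. Their summed control counts in runs 1 and 2 were 288 and 1 for miR-152-3p and 0 and 577 for miR-301b-3p.

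Tudor-SN is known to cut miRNAs at CA and UA dinucleotides, and positions away from the ends of the strand are of most interest. Among the printed sequences, miR-301a-3p and miR-454-3p each had 3 CA or UA dinucleotides more than 5 nt from both ends. There were 2 in miR-301b-3p, 1 in miR-130b-3p and 0 in miR-130b-5p. The CA that begins at position 6 belongs to the shared seed, and miR-301a-3p and miR-454-3p add UA at position 9. The members that rose in run 2 were thus those with 0 or 1 such dinucleotides. Among all tested miRNAs of run 2 with a sequence, 13.2% of those with 0 such dinucleotides were higher after Tudor-SN siRNA. The share was 27.7% with 1, 24% with 2 and 32.7% with 3 or more. Lower were 35.5%, 24.1%, 30.7% and 12.2% of these classes, in the same order. In run 1, 8.82%, 20.7%, 24.4% and 37.5% of the same classes were higher, and 44.1%, 20.7%, 13.3% and 9.38% were lower. Over all tested miRNAs the class with 0 thus had the smallest share higher in both runs, unlike the members. These shares are a description over 341 miRNAs in run 2 and 198 in run 1, and no cause follows from a match.

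The miR-19 family and the family of miR-148 and miR-152, whose seeds hold most of the same letters shifted by a base or so, served for comparison. Of these 5 miRNAs, 4 were tested in run 2, and miR-19a-3p, miR-19b-3p and miR-148b-3p were higher after Tudor-SN siRNA, at log2 fold changes of 0.28, 0.28 and 0.24 (edgeR adjusted p = 0.0437, 0.0215 and 0.0148). The call of miR-19a-3p was lost in 5 of 13 alternatives, among them DESeq2 (adjusted p = 0.157), and its log2 fold change was 0.15 without control replicate 2 and 0.18 without Tudor-SN siRNA replicate 3. The call of miR-19b-3p was lost in 2 of 13, at 0.18 without control replicate 2 and 0.17 without Tudor-SN siRNA replicate 3. In run 1, miR-152-3p was lower at -0.98 (edgeR adjusted p = 2.44e-08) and miR-148a-3p at -0.20 (edgeR adjusted p = 0.0182), while miR-19a-3p and miR-19b-3p were higher at 0.72 and 0.67 (edgeR adjusted p = 1.48e-08 and 5.75e-08). The run 2 estimates of these neighbours were below the lower bound for miR-130b-3p, 0.65. In run 1 miR-19a-3p and miR-19b-3p lay above the estimate of miR-130b-3p, 0.41, and the other neighbours lay below it.

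Across the 12 libraries, after subtracting the mean of each run, the miRNAs with patterns most like miR-130b-3p among 198 compared were miR-532-5p (Pearson r = 0.93) and miR-375 (r = 0.91). Those most like miR-130b-5p were miR-3184-5p (r = 0.84) and miR-31-5p (r = 0.83). For miR-454-3p the nearest were miR-193b-3p (r = 0.66) and miR-210-3p (r = 0.64). These values are descriptions. The siRNA difference was not subtracted, so miRNAs with a similar difference between the siRNAs have a higher r. The depth of each library is shared by all miRNAs. For miR-301a-3p none is given, since it was not tested in run 1.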

How the data were processed

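Small RNA libraries of HEK293T cells were counted per mature miRNA. The authors' raw counts, whole numbers per entry and library, were deposited and used for every test. The deposited normalized signal was the count divided by 1 size factor per library, and the deposited RPM values were read only as a check. The authors' deposited log2 fold changes and adjusted p-values were quoted as theirs. Per the submitters' processing notes, run 1 used Bowtie2, and run 2 used Bowtie2, cutadapt, DESeq and DESeq2. The mapping settings, genome build and treatment of multiply matching reads were not given in the sources used here. Hairpin positions came from GENCODE release 29, and sequences and their coordinates from RefSeq (GRCh38.p14). These are not the authors' coordinates.

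Totals are counts assigned to miRNAs. They were 222452 to 1092713 in run 1 and 927727 to 3140214 in run 2, which limits members with few counts. The confidence level of intervals is 95%. Counts were fitted with edgeR 4.0.16 (R 4.3.3), by run, over both runs with the run as a term, and with an interaction. TMM was computed within a run, or over the 6 control libraries. The filter was filterByExpr with a minimum count of 10 and a minimum total of 15. Ratios used count + 0.5. All members were named, with fixed lists of 7 other family strands and 5 neighbours, and the 2 most similar miRNAs. The members and lists were chosen with earlier results of these data known. The tests were checked on simulated counts. Alternatives were other scalings, no filter, DESeq2 1.42.0, thinned counts, a replicate block and leaving out each library. An added alternative, limma 3.58.1 with a random block, was chosen after seeing the data, as was the test of the ratios' difference between runs. The labels do not say that replicates were separate cultures, and the p-values reflect the spread among libraries alone, possibly technical in origin.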

Additional observations from a re-analysis of the deposited data

Results flagged for a closer look

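The siRNA effect on 2 miRNAs with an offset seed, named for comparison, differed between the runs by the interaction test. For miR-19a-3p the log2 fold change was 0.72 in run 1 and 0.28 in run 2, a difference, run 1 minus run 2, of 0.55 (SE 0.16, edgeR adjusted p = 0.0168). For miR-19b-3p it was 0.67 in run 1 and 0.28 in run 2, a difference of 0.50 (SE 0.15, edgeR adjusted p = 0.0212). Across 20 alternatives the difference ranged from 0.36 to 0.68 for miR-19a-3p, with adjusted p up to 0.142, and the call was lost in 8. For miR-19b-3p it ranged from 0.31 to 0.64, with adjusted p up to 0.180, and the call was lost in 10. By library size alone both calls were lost (adjusted p = 0.127 and 0.172).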

How the results depend on the processing

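Of 306 recomputed member values, 290 kept their direction and their side of the threshold. For miR-130b-3p the range was 0.74 to 0.90 in run 2 and 0.68 to 0.87 over both runs, with adjusted p at most 2.58e-05. The number of members higher in run 2 was 1 with thinned counts, since miR-130b-5p lost its call. The number lower in run 2 was 1 with the replicate block (miR-301a-3p, -0.16, edgeR adjusted p = 0.0389) and 0 to 1 when a library was left out (without Tudor-SN siRNA replicate 3). The number of members whose effect was lower in run 1 than in run 2 was 1 by library size alone, with DESeq2 and with TMM over all 12 libraries (miR-130b-5p, -1.28 to -1.01, adjusted p 0.0276 to 0.0486), and 0 to 1 when a library was left out. Between runs in control cells, the number higher was 0 with thinned counts, where miR-130b-5p did not pass the filter. The sign changed, with no call on either side, for miR-454-3p in run 1 (0.01 as reported, -0.18 with upper quartile scaling, -0.0037 with thinned counts and -0.19 to 0.51 when a library was left out), for miR-454-3p over both runs with DESeq2 (0.051), for miR-130b-5p over both runs with thinned counts (-0.10) and for the ratio of miR-301a-3p to miR-454-3p with thinned counts (0.27). The cause was not tested.

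Same-numbered libraries of the 2 siRNAs correlated at r = 0.14, 0.15 and 0.08 in run 1, with other-numbered ones at -0.15 to 0.01. In run 2 same-numbered ones correlated at 0.05, 0.04 and 0.06, with other-numbered ones at -0.13 to 0.08. Not all same-numbered values were over 0.1, so the numbers were not taken to pair the libraries, although in run 1 they may do so. Across runs, same-numbered Tudor-SN siRNA libraries correlated at r = 0.23, 0.22 and 0.31, with other-numbered ones at -0.19 to 0.001. Same-numbered control libraries correlated at 0.04, -0.11 and -0.24, with other-numbered ones at -0.10 to 0.25. The fits over both runs treat the 12 libraries as independent, which the labels do not settle. With libraries of the same siRNA and number as a random block (limma-voom, chosen after seeing the data), miR-130b-3p was 0.74 over both runs (adjusted p = 4.57e-07) and 0 of the other 3 tested members passed. The correlation estimated within these blocks was -0.11, so the block could not widen the error. This fit therefore cannot show whether shared cultures weaken the result. The difference between runs was not refitted that way. With the replicate block instead, a term in edgeR for the number within each run, 50 miRNAs differed in effect between the runs. Without it there were 44 of 378 tested, and 23 of 237 tested with thinned counts. In the 2 runs the replicate block changed 1 member's call, that of miR-301a-3p in run 2. Over both runs, thinning gave 53 higher of 237 tested, against 87 of 378. The ratio of miR-130b-3p to miR-130a-3p was not computed, since miR-130a-3p did not exceed 3 counts in any library. Depth limits miR-301a-3p in run 1 and miR-130b-5p in every library, and depth was higher with the Tudor-SN siRNA in both runs.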
